A study of Mus musculus with 5 samples.

Results

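The 38 genes described here encode 29 collagen chains and 9 proteins that modify, fold or trim them, and they were examined in the dorsal skin of *Clock* mutant and wild-type (WT) mice. They were chosen by name as the collagens and collagen-processing enzymes. Each gene stands for its brightest probe set (the highest mean log2 intensity over all arrays) among those annotated to that symbol alone, whichever way it differed between the genotypes. All 38 were found among the 18193 genes with such a probe set. A total of 37 lay above the filter on dim probe sets and were tested, of 12955 genes tested in all. *Col10a1*, the collagen of growth plate cartilage, was not tested: its intensities were 4.43 and 14.6 in the *Clock* mutants and 3.11, 23.4 and 3.79 in WT, against a filter at 56.7.

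Skin was taken from 2 *Clock* mutant mice and 3 WT littermates at postnatal day 23 (P23), with RNA of each mouse on its own Affymetrix mouse array. *Clock* encodes the partner of BMAL1 in the core of the circadian clock, and the mutation of these mice changes how its message is spliced. The line was kept on the C57BL/6J background, and the labels do not give the number of mutant copies that a mouse carried. The labels call the mice biological replicates and place all of them by histology in telogen, when hair follicles rest, at a time chosen because it comes before the hair cycle of the mutants lags. In a separate wild-type time course the study classed P23 as early anagen, the start of hair growth. *Clock* mutant replicate 1 was male, and *Clock* mutant replicate 2 and the 3 WT mice were female, so that male sex and that single array cannot be told apart. The time of day of collection was not given in the labels.

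Collagens are trimers of long chains wound into a triple helix. In the endoplasmic reticulum, prolyl and lysyl hydroxylases modify the chains and the chaperone HSP47 holds the folded helix; outside the cell, proteases trim the ends so that fibrils can form. In skin, fibroblasts make most of the fibrillar collagen of the dermis, whereas basement membranes beneath the epidermis and around vessels, muscle and fat cells hold type IV networks, and type VII and type XVII anchor the epidermis to the dermis.

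Values are MAS5 signal intensities, a linear measure of the brightness of a probe set, and differences are log2 values, *Clock* mutant minus WT, with the standard error (SE) from limma fitted over 27022 probe sets. Adjusted p-values are Benjamini-Hochberg values over those probe sets. Intensities of different probe sets are not on a common scale, so only differences between arrays are compared. Because the tissue is bulk skin, fewer cells of a type and less RNA per cell cannot be told apart.

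*Clock* mutant replicate 1 stood apart before any collagen was considered. The summed intensity of 12 marker genes of the growing hair shaft and inner root sheath was 9273 on that array, 1634 in *Clock* mutant replicate 2 and 678 to 1713 in WT, although all mice were staged as telogen. The brightest markers dominate this sum. The median log2 difference of the 8 tested markers from the WT mean was 2.91 in replicate 1 and 0.86 in replicate 2. It was 0.69, -0.35 and -0.35 in WT. Both mutant arrays lay above every WT array for *Krt73*, *Tchh*, *Krt31* and *S100a3*, but not for *Krt25*, *Krt27*, *Krt71* and *Krt72*. The 3'/5' signal ratio of the pyruvate carboxylase control, which rises when labelled RNA is short, was 54.1 there and 19.1 to 28.1 on the other arrays. That 54.1 rests on a 5' signal of 40.4, below the filter at 56.7. The ratio of *Gapdh* was 0.860 to 1.05 and that of beta-actin 1.14 to 1.23 on all 5. Among dim controls, the transferrin receptor had 8.09 there and 7.71 to 14.3 on the other arrays. The ratio of 18S RNA was 2.08 and 2.28 in the *Clock* mutants and 1.24 to 1.78 in WT. Of these controls only pyruvate carboxylase set *Clock* mutant replicate 1 far apart. Epidermal keratins and dermal fibroblast genes were bright on every array, as the label dorsal skin requires. Muscle genes such as *Acta1* and *Ckm* were bright as well, at intensities of 20694 to 24292 on all 5 arrays; dorsal skin carries a thin muscle sheet. Differences of the members are therefore given below for all 5 arrays and again without *Clock* mutant replicate 1. Those of single marker genes are given for all 5 arrays only. The part that hair growth, RNA integrity or sex has in these differences was not tested.

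No member passed the adjusted threshold of 0.05 in limma. The smallest adjusted p was 0.262, for *Col5a3*. A regularised test modelled on Cyber-T also called 0 members. Of all genes tested, 0.116% passed that threshold in limma and 0.216% in the regularised test. At an unadjusted p under 0.05, 5 members (*Col5a3*, *Col15a1*, *P4ha2*, *Col4a2* and *Col14a1*) were higher in the mutants and 1 (*Col4a4*) was lower. The shares were 13.5% and 2.70% of members, beside 5.24% higher and 4.78% lower among all genes tested. The regularised test gave 3 higher and 1 lower at that level, beside 3.72% and 3.68% of all genes. These shares of all genes come from fits over all arrays, so the counts below without an array have no background beside them. In limma the count of higher members was 3 without *Clock* mutant replicate 1, of which *Col5a3* alone was among the 5 and *Col4a5* and *Col7a1* were not. It was 3 without WT replicate 1 (*Col5a3*, *Col15a1* and *P4ha2*) and 1 without WT replicate 2 (*Col5a3*). The count of lower members was 3 without *Clock* mutant replicate 1 (*Col4a4*, *Plod2* and *Plod3*). The intensities of the 2 genotypes did not overlap for 7 members that were higher and 3 that were lower (18.9% and 8.11%), beside 15.7% and 12.3% of all genes tested, so by this measure the members lay near the background.

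The median difference over the 37 members was 0.034, with 23 positive and 14 negative values, and the range ran from -0.29 to 0.66. The median over all genes tested was 0.016. The members' median was -0.020 with *Clock* mutant replicate 1 left out and 0.077 with *Clock* mutant replicate 2 left out. The members were measured with more precision than most genes: their median SE was 0.099 against 0.13 over all genes tested. The 95% confidence interval of the difference lay within 0.5 of 0 for 27 members and within 1 of 0 for 36. *Col5a3* was the exception to the wider bound.

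**Figure D1:**
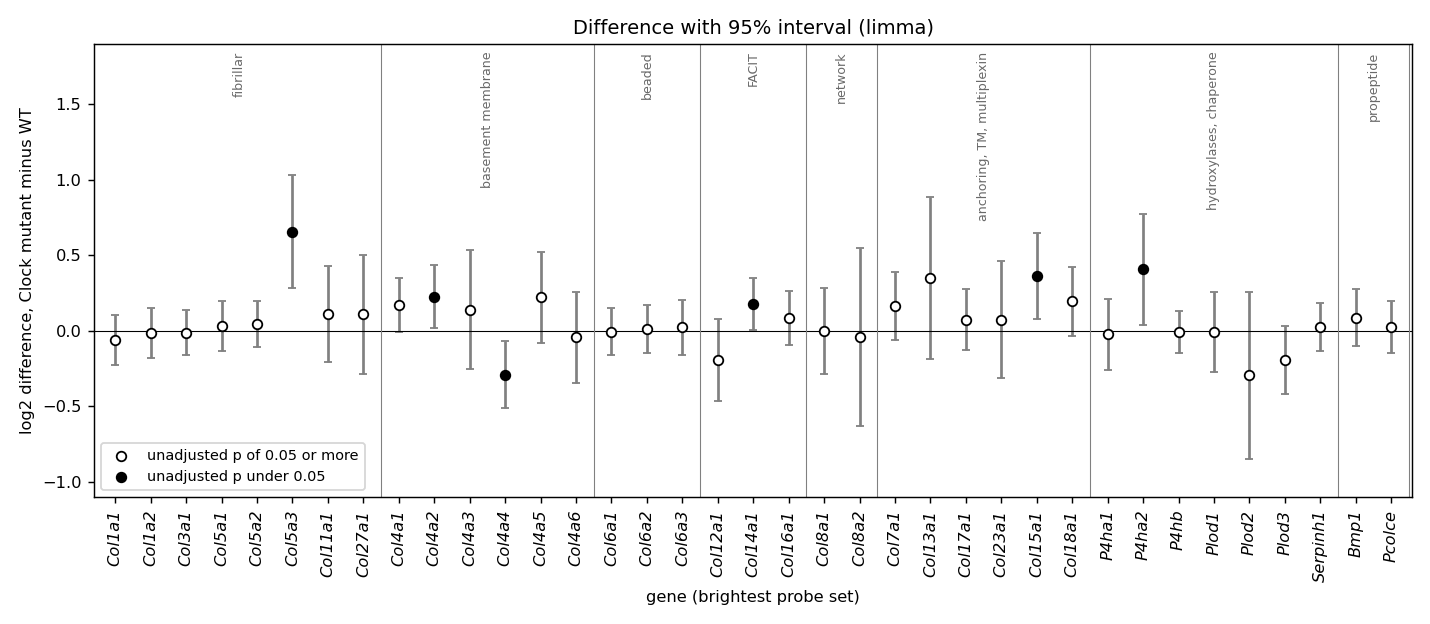
Log2 difference (vertical axis, *Clock* mutant minus WT) of each of the 37 tested members (horizontal axis, grouped by class; TM is transmembrane), with the 95% confidence interval from limma as a bar, over 2 mutant and 3 WT arrays. Filled points are the 6 members at an unadjusted p under 0.05: *Col5a3* (0.66), *P4ha2* (0.41), *Col15a1* (0.36), *Col4a2* (0.23) and *Col14a1* (0.18) lie above 0 and *Col4a4* (-0.29) below, and the intervals of the others include 0.

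The fibrillar collagens, which bear the tension of the dermis, had a median difference of 0.041 over 8 genes, and of -0.026 without *Clock* mutant replicate 1. The 3 main chains of the dermis differed little between the genotypes. *Col1a1*, which encodes the major chain of type I collagen, had intensities of 19850.2 and 19368 in the *Clock* mutants and 19589, 19563 and 22198 in WT. The highest array was a WT array and the groups overlapped. The difference was -0.058 (SE 0.073, adjusted p = 0.801, limma).

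*Col1a2*, the other chain of type I collagen, read 23362 and 22211 in the *Clock* mutants and 22766, 21584 and 24869 in WT, a difference of -0.016 (SE 0.073). *Col3a1*, whose type III collagen mixes with type I in skin fibrils, read 24575 and 23966 in the *Clock* mutants and 23162, 24551 and 25799.8 in WT, a difference of -0.013 (SE 0.065). The groups overlapped for both genes. Without *Clock* mutant replicate 1 the differences of *Col1a1*, *Col1a2* and *Col3a1* were -0.076, -0.052 and -0.031. Those of *Col1a2* and *Col3a1* were positive under quantile normalization (0.014 and 0.025), and all 3 were positive under median centring (0.030, 0.072 and 0.076), which added the same 0.088 to the difference of every gene. The 95% intervals of these brightest probe sets ran no lower than -0.22 and no higher than 0.15; dimmer probe sets of *Col1a1* and *Col1a2*, given further on, had differences above that range.

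Type V collagen is a minor fibril component that limits how thick type I fibrils grow. Its chains *Col5a1* and *Col5a2* had differences of 0.034 (SE 0.073) and 0.048 (SE 0.068), or -0.042 and -0.020 without *Clock* mutant replicate 1. The remaining chain gave another picture. *Col5a3* (gene ID 53867) had intensities of 3758 and 2355 in the *Clock* mutants and 1906, 1928 and 1827 in WT. Both mutant arrays lay above every WT array, but *Clock* mutant replicate 1 lay far above the other mutant, so that the mutant mean was 3057 ± 992 (SD, n = 2) beside 1887 ± 52.8 (SD, n = 3) in WT. The difference was 0.66 (SE 0.16, unadjusted p = 0.00314, adjusted p = 0.262, limma), or 1.58-fold. It was 0.32 without *Clock* mutant replicate 1 (adjusted p = 0.642). It was 0.99 without *Clock* mutant replicate 2, and passed the threshold there (adjusted p = 0.00987), with the lone mutant array assumed to vary as the others do. Over all 14 alternatives its adjusted p ran from 0.00987 to 0.774, and it was the sole member called under any of them. The second *Col5a3* probe set was under the filter and gave no second reading.

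The 2 remaining fibrillar chains were dim. *Col11a1*, a chain better known from cartilage fibrils, had intensities of 276 and 297 in the *Clock* mutants and 267, 273 and 256 in WT. The groups did not overlap, but the difference of 0.11 was smaller than its SE of 0.14, and the second probe set of the gene gave -0.18. *Col27a1* had a difference of 0.11 (SE 0.17) with overlapping groups. Without *Clock* mutant replicate 1 the values of *Col11a1* and *Col27a1* were 0.17 and 0.30.

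**Figure D2:**
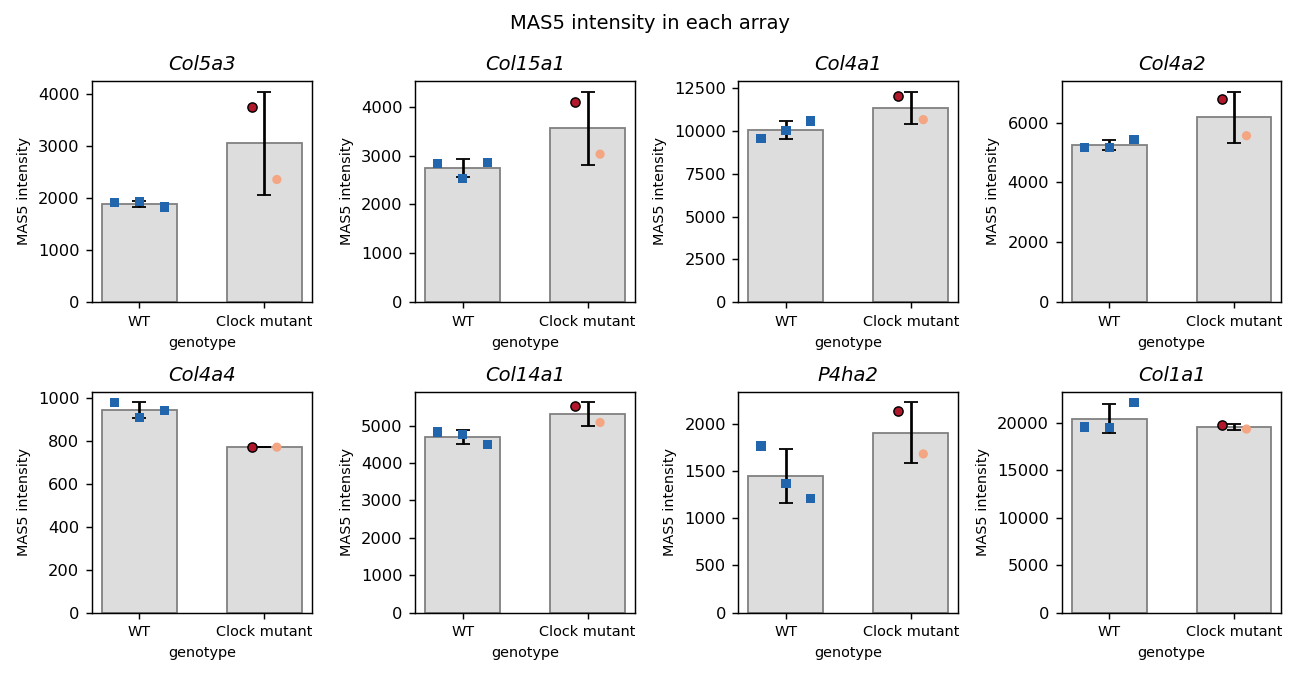
MAS5 intensity (vertical axes, linear from 0) by genotype for the 6 members at an unadjusted p under 0.05 and for *Col4a1* and *Col1a1*; bars are means of WT (n = 3) and *Clock* mutant (n = 2) arrays, error bars the SD, squares the WT arrays, the dark outlined circle *Clock* mutant replicate 1 and the pale circle replicate 2. Replicate 1 is the highest array for *Col5a3*, *Col15a1*, *Col4a1*, *Col4a2*, *Col14a1* and *P4ha2*, and both mutant arrays lie below all WT arrays for *Col4a4*.

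The 6 type IV chains of basement membranes had a median difference of 0.16, or 0.084 without *Clock* mutant replicate 1, with 4 positive and 2 negative values. *Col4a1* and *Col4a2* form the network found in nearly all basement membranes. *Col4a1* had intensities of 12035 and 10673 in the *Clock* mutants and 9585, 10016 and 10596 in WT. Both mutants were above all WT arrays, replicate 2 by a narrow margin. The difference was 0.17 (SE 0.078, unadjusted p = 0.0545, adjusted p = 0.470, limma), and the second probe set gave 0.065.

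*Col4a2* (gene ID 12827) had intensities of 6789 and 5564 in the *Clock* mutants and 5170.2, 5161 and 5440.5 in WT. Its groups were again apart, with *Clock* mutant replicate 2 just above the highest WT array. The difference was 0.23 (SE 0.092, unadjusted p = 0.0371, adjusted p = 0.440, limma). Leaving out *Clock* mutant replicate 1 brought *Col4a1* to 0.086 and *Col4a2* to 0.082, and leaving out replicate 2 brought them to 0.26 and 0.37, so most of the excess in this pair came from 1 mouse.

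*Col4a4* (gene ID 12829), a chain of the second network, which in the body is best known from the kidney, was the one member lower in the mutants at an unadjusted p under 0.05. Its intensities were 773 and 772 in the *Clock* mutants and 982, 909.7 and 944 in WT. The 2 mutants were nearly the same and both lay below every WT array. The difference was -0.29 (SE 0.098, unadjusted p = 0.0161, adjusted p = 0.371, limma), and it was -0.29 without either mutant array. The other probe sets of *Col4a4* did not give 1 direction: a dim one had a difference of -0.21 (SE 0.23) and one of like brightness had 0.16 (SE 0.11), with intensities of 831 and 938 in the *Clock* mutants and 854, 737 and 779 in WT.

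*Col4a3*, the partner of *Col4a4*, had a difference of 0.14 (SE 0.17), or -0.053 without *Clock* mutant replicate 1. *Col4a5* had intensities of 1786 and 2304 in the *Clock* mutants and 1968, 1702 and 1566 in WT. Here *Clock* mutant replicate 2, not replicate 1, was the highest array, and replicate 1 lay within the WT range. The difference was 0.22 (SE 0.13, adjusted p = 0.568, limma), 0.41 without *Clock* mutant replicate 1 and 0.039 without replicate 2. *Col4a6*, its neighbour on the X chromosome, had a difference of -0.042 (SE 0.13). It was 0.14 without *Clock* mutant replicate 1 and 0.047 with the constant shift of median centring. The second *Col4a6* probe set gave 0.24 (SE 0.14) without overlap of the groups.

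**Figure D3:**
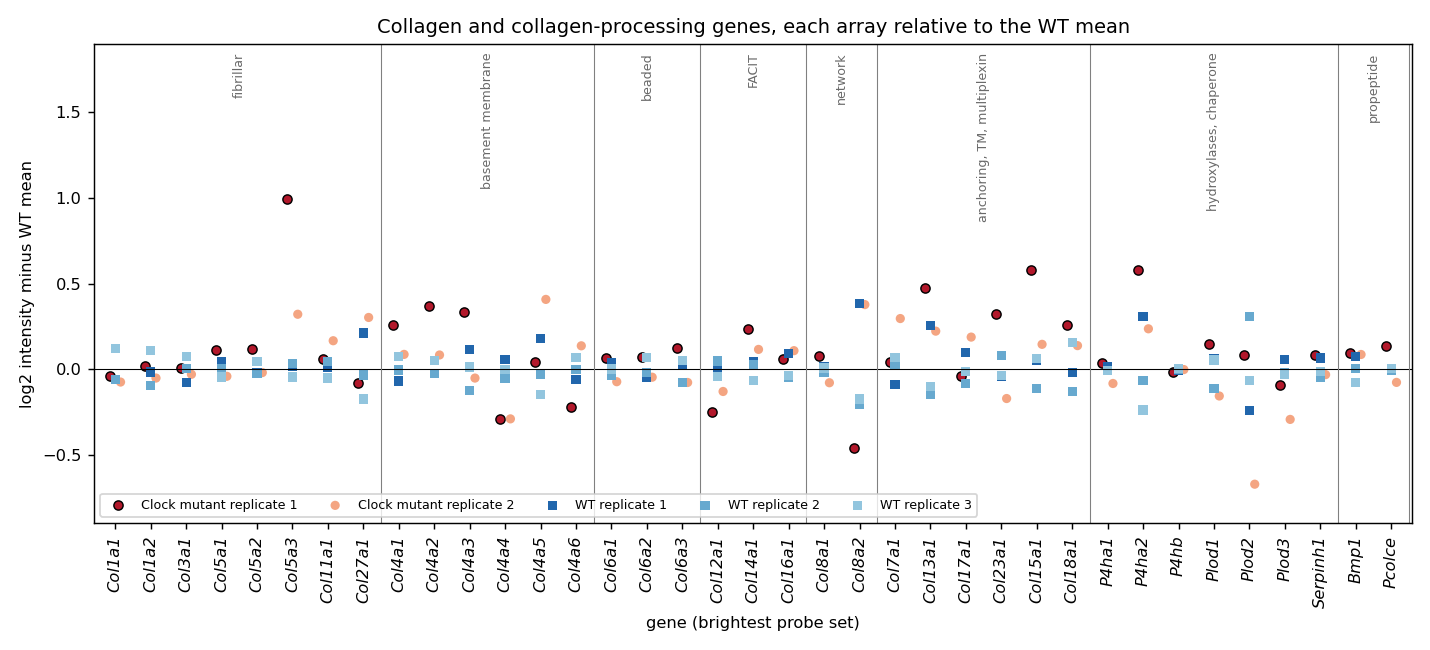
Log2 intensity of each tested member (horizontal axis, grouped by class; TM is transmembrane) on each array, as the difference from the mean of the 3 WT arrays (vertical axis), with circles for *Clock* mutant and squares for WT arrays. *Clock* mutant replicate 1 is high for *Col5a3* (0.99), *P4ha2* (0.58) and *Col15a1* (0.58), replicate 2 is high for *Col4a5* (0.41), and replicate 2 is low for *Plod2* (-0.67).

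*Col4a1* and *Col4a2* are read in opposite directions from one shared promoter. In the RefSeq annotation of the mouse genome (GRCm38.p6) their starts lie on chromosome 8 at 11312826 on the minus strand and at 11312805 on the plus strand, 21 bases apart. The minus-strand start has the higher coordinate, so the annotated transcripts overlap by their first bases. *Col4a5* and *Col4a6* are also read in opposite directions, with starts 1343 bases apart on chromosome X. Their annotated transcripts do not overlap there. Promoter windows, from 250 bases before to 50 after the start, were held for 31 of the 38 members and searched on both strands for 5 motifs; *Col1a1*, *Col5a2*, *Col4a3*, *Col12a1*, *Col14a1*, *Plod2* and *Bmp1* had none here. The E-box CACGTG, the motif bound by CLOCK and BMAL1, was in 0 of 31 members and in 11.5% of the tested genes with a window. Its variant CACGTT, which differs in the last letter, was in 2 of 31 members, *Col4a4* and *P4hb*, and in 6.37% of tested genes. The D-box TTATGTAA was in 0 of 31 members and in 0.674% of tested genes. The CCAAT box, spelled CCAAT, was in 12 of 31 members (38.7%; 42.3% of tested genes), and the GC box GGGCGG was in 22 of 31 (71.0%; 67.2% of tested genes). These shares describe the letters in the windows and say nothing of whether a factor binds there.

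The windows of *Col4a1* and *Col4a2* share a single GC box, which lies downstream of both starts, where the annotated transcripts overlap. The stretches below show this box, the 2 CACGTT matches and the CCAAT box of *Col5a3*, the member with the largest difference. Each is written 5' to 3' on the strand of its gene, with the motif or its reverse complement in capitals. They lie at chr1:82586917-82586946 (*Col4a4*, minus strand), chr11:120573292-120573321 (*P4hb*, minus), chr8:11312800-11312829 (*Col4a2*, plus, and *Col4a1*, minus) and chr9:20815173-20815201 (*Col5a3*, minus).
Col4a4: cgggtgcaggtcAACGTGaggaatttaggg
P4hb: tccgcccactgcCACGTTcgacggagaatc
Col4a2: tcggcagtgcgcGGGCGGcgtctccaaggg
Col4a1: cccttggagacgCCGCCCgcgcactgccga
Col5a3: gatctcagccagCCAATcagcgcgtggtg
The *Col4a4* match began 85 bases before its start and the *P4hb* match 56 bases before. Of these genes *Col4a4* had a difference of -0.29 on its brightest probe set and 0.16 on one of like brightness. *P4hb* had a difference of -0.0087. Whether the motif has a part in these values was not tested.

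Type VI collagen forms beaded filaments around cells, and its 3 chains had differences near 0. *Col6a1* had intensities of 13164 and 11960.2 in the *Clock* mutants and 12902, 12277 and 12594 in WT. One mutant lay above and the other below all WT arrays. The differences were -0.0047 for *Col6a1*, 0.011 for *Col6a2* and 0.023 for *Col6a3*, with SE of 0.069, 0.069 and 0.080; with the constant shift of median centring *Col6a1* was at 0.084. Without *Clock* mutant replicate 1 they were -0.074, -0.048 and -0.078, and without replicate 2 they were 0.065, 0.070 and 0.12. The 3 chains thus lay on the same side of the WT mean on each mutant array, although *Col6a2* and *Col6a3* were inside the WT range on replicate 2. The chains did not move together on every WT array, since WT replicate 1 was the highest of them for *Col6a1* and the lowest for *Col6a2*.

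FACIT collagens sit on the surface of fibrils and link them to other matrix proteins. *Col14a1* (gene ID 12818) had intensities of 5534 and 5085 in the *Clock* mutants and 4833, 4772 and 4489 in WT. Both mutants were above all WT arrays. The difference was 0.18 (SE 0.077, unadjusted p = 0.0470, adjusted p = 0.458, limma), but the other tested probe set gave -0.073 with overlapping groups, and the mean of the 3 probe sets, of which one is under the filter, gave -0.66. Without *Clock* mutant replicate 1 the brightest one gave 0.11. *Col12a1* had intensities of 411 and 448 in the *Clock* mutants and 489.6, 507 and 475 in WT. It was thus lower in both mutants without overlap, by a difference of -0.19 (SE 0.12, unadjusted p = 0.142) that did not pass even the unadjusted threshold, and by -0.13 without *Clock* mutant replicate 1. *Col16a1* had a difference of 0.084 (SE 0.079), or 0.11 without that array.

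The short-chain network collagens *Col8a1* and *Col8a2*, found around vessels and beneath specialised epithelia, had differences of -0.0013 (SE 0.13) and -0.041 (SE 0.26), or -0.080 and 0.38 without *Clock* mutant replicate 1. Both were positive under quantile normalization (0.037 and 0.0031) and with the constant shift of median centring (0.087 and 0.047). A dimmer probe set of *Col8a1* gave -0.27 (SE 0.15) without overlap of the groups. *Col8a2* had the largest SE of the members: its intensities were 279 and 498 in the *Clock* mutants and 500.4, 332 and 340.1 in WT, so the mutants spanned almost the whole range.

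The 6 collagens that anchor the epidermis, cross cell membranes or carry endostatin-like ends (the multiplexins) all had positive differences on their brightest probe sets. The median was 0.18, or 0.17 without *Clock* mutant replicate 1. Dimmer probe sets gave -0.016 for *Col18a1* and 0.073 and -0.034 for *Col23a1*. *Col7a1*, which forms the anchoring fibrils below the epidermal basement membrane, had intensities of 2399.8 and 2864 in the *Clock* mutants and 2192, 2372 and 2444 in WT. *Clock* mutant replicate 2 was the highest array and replicate 1 lay inside the WT range. The difference was 0.17 (SE 0.10, adjusted p = 0.568, limma), or 0.30 without *Clock* mutant replicate 1. *Col17a1*, the transmembrane collagen of the hemidesmosomes that fix basal keratinocytes, had intensities of 7553 and 8832 in the *Clock* mutants and 8294, 7323 and 7690.1 in WT, a difference of 0.074 (SE 0.089) with overlapping groups. Its value was 0.19 without *Clock* mutant replicate 1 and -0.039 without replicate 2. Of the epidermal keratins on the same arrays, *Krt1* had a difference of 0.31 (unadjusted p = 0.0100, adjusted p = 0.340, limma, groups apart), *Krt5* of 0.16, *Krt14* of 0.036 and *Krt10* of -0.014. Of the other epidermal genes *Flg* had -0.26 (unadjusted p = 0.0182, adjusted p = 0.376, limma, groups apart) and *Lor* -0.075.

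The multiplexins *Col15a1* and *Col18a1* lie in and beneath vascular, muscle and epithelial basement membranes, and both release endostatin-type fragments. *Col15a1* (gene ID 12819) had intensities of 4091 and 3028 in the *Clock* mutants and 2837, 2532 and 2861 in WT. *Clock* mutant replicate 1 was far above the other arrays and replicate 2 just above the highest WT array. The difference was 0.36 (SE 0.13, unadjusted p = 0.0182, adjusted p = 0.376, limma). It was 0.14 without *Clock* mutant replicate 1 and 0.58 without replicate 2. *Col18a1* had intensities of 2678 and 2468 in the *Clock* mutants and 2210.1, 2048 and 2497 in WT, a difference of 0.20 (SE 0.10, adjusted p = 0.521, limma) with overlapping groups, or 0.14 without *Clock* mutant replicate 1. The transmembrane collagens *Col13a1* and *Col23a1* had differences of 0.35 (SE 0.24) and 0.075 (SE 0.17), or 0.22 and -0.17 without *Clock* mutant replicate 1. *Col13a1* was dim, at 82.2 to 127.

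*Col15a1*, *Col4a1* and *Col4a2*, genes of vascular basement membranes among others, were measured beside 5 endothelial markers. The summed intensity of these was 4093 and 3791 in the *Clock* mutants and 3504 to 3616 in WT. All 5 were tested and 4 had positive differences, with a median of 0.043, but the excess was uneven: *Tek* had a difference of 0.41 and *Pecam1* of 0.20, against 0.043 for *Cdh5*, 0.022 for *Tie1* and -0.060 for *Kdr*. For the fibrillar chains the dermal fibroblast list was the nearest reference. Its 9 genes had a median of 0.0034, from -0.12 to 0.37, with *Dcn*, *Lum* and *Dpt* at -0.052, 0.0034 and -0.0027. A second *Dcn* probe set gave -0.45. Groups were apart for 3 genes of this list that were higher and 1, *Vim* (-0.12), that was lower. *S100a4* (0.37) and *Pdgfrb* (0.28) were the 2 at an unadjusted p under 0.05. Skeletal muscle (6 genes), adipocyte (4 of 5 measured) and macrophage (4 genes) lists had medians of -0.047, -0.11 and 0.043, and the epidermal list (6 genes) had 0.011. The list medians differed between the mutant arrays. Without *Clock* mutant replicate 1 they were 0.013 (endothelial), -0.042 (fibroblast), -0.11 (muscle), -0.34 (adipocyte), -0.097 (macrophage) and -0.010 (epidermal). Without replicate 2 they were 0.14, 0.077, -0.0013, -0.020, 0.21 and 0.032 in that order. Among the adipocyte genes *Cidec* (-0.36) and *Fabp4* (-0.18) were at an unadjusted p under 0.05, both lower in the mutants without overlap. Of the cartilage and bone list 4 of 5 were measured, and *Acan* and *Ibsp* were under the filter, beside the dim *Col10a1*. The part of cell content in the collagen values was not tested.

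Among the enzymes that modify the chains, prolyl hydroxylation stabilises the helix at body temperature and lysyl hydroxylation prepares cross-links. The 6 hydroxylase subunits and the chaperone had a median of -0.0087, with 2 of 7 positive, and of -0.084 without *Clock* mutant replicate 1. *P4ha1*, the catalytic subunit of the common prolyl hydroxylase, had intensities of 775 and 712 in the *Clock* mutants and 762, 752 and 751 in WT, a difference of -0.023 (SE 0.10). *P4hb*, the subunit shared by the prolyl hydroxylases and also known as protein disulfide isomerase, had the smallest SE of the members: it read 10476 and 10562 in the *Clock* mutants and 10537, 10587 and 10624 in WT, a difference of -0.0087 (SE 0.061). Without *Clock* mutant replicate 1 they were -0.084 and -0.0029, and with the constant shift of median centring 0.065 and 0.080.

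*P4ha2* (gene ID 18452), the second catalytic subunit, differed from that pair. It had intensities of 2138 and 1684 in the *Clock* mutants and 1768, 1366 and 1211 in WT. *Clock* mutant replicate 1 was the highest array, but replicate 2 lay below WT replicate 1, so the groups overlapped. The difference was 0.41 (SE 0.16, unadjusted p = 0.0337, adjusted p = 0.430, limma), 0.24 without *Clock* mutant replicate 1 and 0.58 without replicate 2.

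The lysyl hydroxylases had no common value. *Plod1* had intensities of 1396 and 1130.2 in the *Clock* mutants and 1316, 1164 and 1307 in WT. The 2 mutants lay on either side of the WT range and the difference was -0.0052 (SE 0.12), or -0.16 without *Clock* mutant replicate 1 and 0.083 with the shift of median centring. *Plod2* hydroxylates the chain ends outside the helix, where cross-links form. It read 316 and 187 in the *Clock* mutants and 252, 369 and 285 in WT, a difference of -0.29 (SE 0.24) with overlapping groups. The second *Plod2* probe set gave -0.41 (SE 0.19) without overlap. *Plod3*, which also adds glucose to hydroxylysine, read 1268 and 1102 in the *Clock* mutants and 1405, 1332 and 1320.5 in WT, with both mutants below all WT arrays. Its difference was -0.19 (SE 0.099, unadjusted p = 0.0828, adjusted p = 0.518, limma). In both genes *Clock* mutant replicate 2 was the lowest array, and without replicate 1 the differences were -0.67 and -0.29, which put both at an unadjusted p under 0.05 there (adjusted p = 0.694 and 0.733, limma).

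*Serpinh1* encodes HSP47, the collagen-specific chaperone, and had intensities of 10287 and 9487 in the *Clock* mutants and 10146, 9368 and 9613 in WT. The groups overlapped and the difference was 0.026 (SE 0.071), or -0.033 without *Clock* mutant replicate 1. *Bmp1*, the protease that removes the carboxyl propeptides of fibrillar procollagens, had intensities of 2538 and 2526 in the *Clock* mutants and 2506, 2389 and 2256 in WT. Both mutants were above all WT arrays, by 0.089 (SE 0.083, unadjusted p = 0.311), and a second probe set gave -0.027. *Pcolce*, which enhances the activity of that protease, had a difference of 0.028 (SE 0.076). Without *Clock* mutant replicate 1 the values of *Bmp1* and *Pcolce* were 0.085 and -0.078.

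**Figure D4:**
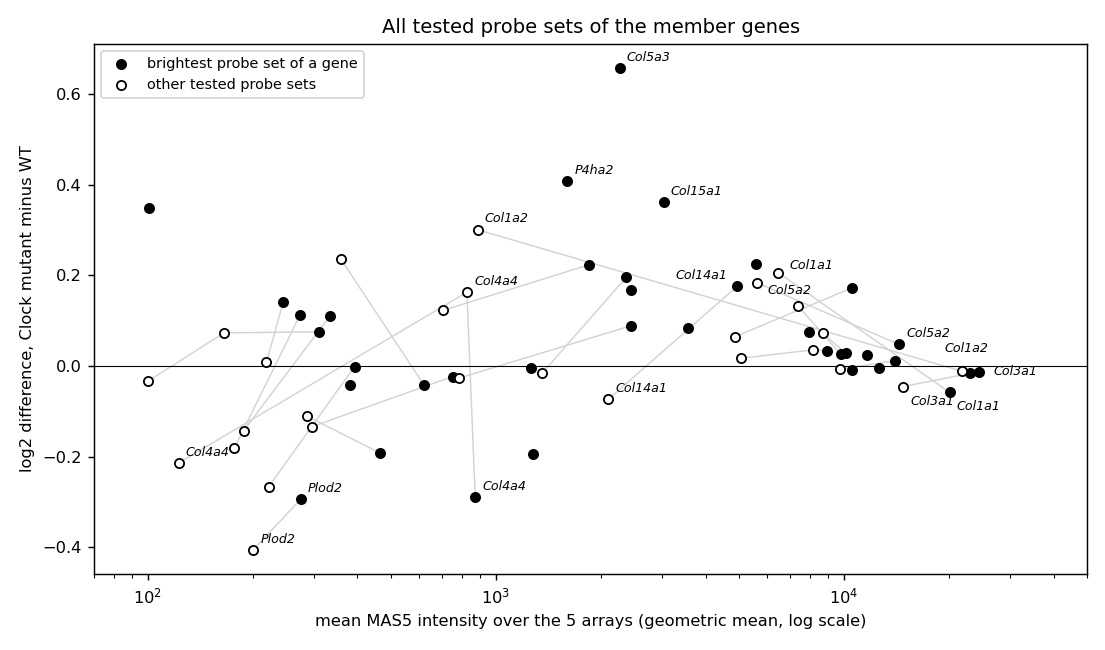
All 64 tested probe sets of the members, with the mean MAS5 intensity over the 5 arrays (horizontal, log scale) against the log2 difference, *Clock* mutant minus WT (vertical). Filled points are the brightest probe set of each gene, open points the others, and lines join probe sets of one gene. The brightest readings of *Col1a1*, *Col1a2* and *Col3a1* lie between -0.058 and -0.013, and the dimmer reading of *Col1a1* lies at 0.21.

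Several members can be read a second time from other probe sets. A total of 64 probe sets of the members were tested and 0 passed the adjusted threshold in limma, while 7 were higher and 1 was lower at an unadjusted p under 0.05. These were 10.9% and 1.56% of them, beside 4.09% and 6.71% of all probe sets tested. The regularised test called 0, with 3 higher and 1 lower (4.69% and 1.56%, beside 2.83% and 5.27% of all probe sets). Of the 23 members with more than 1 tested probe set, 12 had differences of one sign throughout and 11 had both signs. The bright chains are a case apart, since their brightest probe sets read close to the highest mean intensity in the table, 26767. The dimmer *Col1a1* probe set had intensities of 7309 and 6807 in the *Clock* mutants and 5709, 6115 and 6556 in WT. Both mutants were above all WT arrays there, with a difference of 0.21 (SE 0.081, unadjusted p = 0.0317, adjusted p = 0.422, limma), beside -0.058 from the brightest one. The dimmer *Col5a2* probe set gave 0.18 (SE 0.077, unadjusted p = 0.0400) beside 0.048, and a dim one of *Col1a2* gave 0.30 (SE 0.20). The dimmer *Col3a1* probe set gave -0.045 (SE 0.066). Whether signal near the top of the scale is compressed was not tested.

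Other genes that act on collagens were taken from a list of 46, of which 40 had a probe set of their own and 29 were tested. None of the 29 passed the adjusted threshold in limma; 5 were higher and 0 lower at an unadjusted p under 0.05, or 17.2% and 0% of the list, beside the 5.24% and 4.78% of all genes given above. The regularised test also called 0 of them and had 5 higher and 0 lower at that level. Groups were apart for 9 that were higher and 1 that was lower, or 31.0% and 3.45%, beside 15.7% and 12.3% of all genes tested. The median difference was 0.080, and 0.028 without *Clock* mutant replicate 1. The 4 with the smallest p were *Lox* and *Loxl1*, lysyl oxidases that make the cross-links, *Fkbp14*, a prolyl isomerase of the endoplasmic reticulum, and *Creb3l1*, a transcription factor known for its role in type I collagen synthesis.

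*Lox* had intensities of 8211 and 6945 in the *Clock* mutants and 5728, 5989 and 5901 in WT, with both mutants well above WT. The difference was 0.36 (SE 0.084, unadjusted p = 0.00196, adjusted p = 0.230, limma), and 0.24 without *Clock* mutant replicate 1. *Fkbp14* had a difference of 0.47 (adjusted p = 0.273), *Creb3l1* of 0.42 (adjusted p = 0.300) and *Loxl1* of 0.36 (adjusted p = 0.371), all in limma and without overlap of the groups, and without *Clock* mutant replicate 1 they were 0.37, 0.34 and 0.26. The fifth, *Sec24d*, part of the coat that carries procollagen out of the endoplasmic reticulum, was added after its values were seen: its difference was 0.31 (adjusted p = 0.376), or 0.17 without *Clock* mutant replicate 1. In each of these 5 genes *Clock* mutant replicate 1 was the highest array and replicate 2 the next. The cartilage chain *Col2a1*, also on the list, had a difference of -0.15 (SE 0.37) at intensities of 71.7 to 194. The counts of this list rest on the brightest probe sets. *Ddr1*, also on the list, had -0.33 (SE 0.21) there. Its 7 tested probe sets ran from -0.95 to 0.21, with 2 at an unadjusted p under 0.05 in limma. *Lox* and *Loxl1* had 2 tested probe sets each, all higher at that level.

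The values of all members also depended on how arrays were scaled. Median centring gave *Clock* mutant replicate 1, with its lower median intensity (106 beside 114 to 118 on the other arrays), a larger correction. It so raised every difference by 0.088 and moved the median of all probe sets tested from -0.017 to 0.071. At an unadjusted p under 0.05, 9 members were then higher and 0 lower. Shares of all genes under this scaling are not given, so these counts have no background beside them.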

How the data were processed

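Gene expression was measured in dorsal skin of 5 mice at P23 from 11 µg total RNA each, extracted with Trizol. The values deposited by the authors were signal intensities computed by MAS5, 1 for each probe set of an array; the version of MAS5 was not given in the sources used here. MAS5 sets each array to 1 trimmed mean (500.0 here) and is noisy at low intensity, and scanner files were not used here. Of 45101 probe sets, 64 controls were left out; 34945 had 1 gene symbol in the platform annotation, 932 had several and 9160 were unnamed here. All 38 members matched the RefSeq gene table (GRCm38.p6).

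A floor of 1 was set (2441 values lay below it) before taking log2. The dimmest probe sets, those whose mean over the arrays fell below the 40th percentile (18015), were dropped, leaving 27022. The genotypes were compared in R 4.3.3 with limma 3.58.1 (lmFit, eBayes with an intensity trend, two-sided, Benjamini-Hochberg over all probe sets tested), after the step was checked on simulated data. It called 24 probe sets, 4 higher and 20 lower in the mutants. For these arrays the methods name no test. Groups came from the sample titles. The number of arrays limits the precision.

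Every member is named, with values in all arrays for those at an unadjusted p under 0.05 and for heads of classes. Of the other collagen pathway genes the 4 with the smallest p are named by rule, and *Sec24d*, *Col2a1* and *Ddr1* were added after their values were seen. Members, classes, marker lists and tests were chosen with earlier results of these data known. The alternatives changed the scaling (quantile or median), the filter (none, or the 60th percentile), the floor (adding 32 to each intensity instead), the test (eBayes with no trend, or a regularised test modelled on Cyber-T with a window of 101 and a prior weight of 10), the use of probe sets (averaging those of a gene), the design (a replicate block) and the arrays (each left out once).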

Additional observations from a re-analysis of the deposited data

How the results depend on the processing

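Median centring added the same 0.088 to every difference, so sign changes under it concern the scale of the arrays and no single gene. It moves the counts at an unadjusted p under 0.05 as well, and no share of all genes under it is given here. Over the 13 other alternatives, 14 of the 37 members kept the sign of their difference and 23 changed it at least once. Not all of these could change a sign. The filter settings, eBayes without a trend and the Cyber-T style test keep the differences of the main analysis. The replicate block gives the same differences as leaving out WT replicate 3. No member was called under any alternative that kept all arrays, and *Col5a3* was called without *Clock* mutant replicate 2 (adjusted p = 0.00987). The cause of the changes below was not tested. Quantile normalization made *Col1a2* 0.014, *Col3a1* 0.025, *Col8a1* 0.037 and *Col8a2* 0.0031. Median centring made *Col1a1* 0.030, *Col1a2* 0.072, *Col3a1* 0.076, *Col4a6* 0.047, *Col6a1* 0.084, *Col8a1* 0.087, *Col8a2* 0.047, *P4ha1* 0.065, *P4hb* 0.080 and *Plod1* 0.083, with 9 members higher and 0 lower at an unadjusted p under 0.05. Class medians were then 0.13 (fibrillar), 0.25 (basement membrane), 0.10 (beaded filament), 0.17 (FACIT), 0.27 (anchoring, transmembrane and multiplexin), 0.080 (hydroxylases and chaperone) and 0.15 (propeptide processing), and 0.12 over all members. Averaging all probe sets of a gene, dim ones included, made *Col1a1* 0.074, *Col1a2* 0.091, *Col11a1* -0.034, *Col27a1* -0.016, *Col4a6* 0.097, *Col14a1* -0.66, *Bmp1* -0.046 and *Fkbp14* -0.024, left 3 members higher at an unadjusted p under 0.05 (*Col4a2*, *Col15a1* and *P4ha2*, without *Col5a3*) and *Col14a1* in place of *Col4a4* as the 1 lower, and gave medians of 0.11 (basement membrane), -0.29 (FACIT) and 0.0021 (propeptide processing). The count of higher members was 1 with eBayes without a trend and 3 with the Cyber-T style test. Of all probe sets, 24 were called in the main analysis, 10 with no filter, 0 without a trend, 47 by the Cyber-T style test and 106 with the replicate block.

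Mutant and WT arrays share replicate numbers, but nothing in the labels pairs them, and the deviations of equally numbered arrays from their group means correlated at 0.00780 (replicate 1) and 0.0986 (replicate 2). The replicate block therefore compares arrays that share only a number, and WT replicate 3 has no mutant array beside it there. Its differences are thus those without WT replicate 3 and no separate reading. They were 0.0023 for *Col1a1*, 0.039 for *Col1a2*, 0.025 for *Col3a1*, 0.0019 for *Col8a1* and 0.021 for *Plod1*. The block called 0 members.

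Leaving out each array in turn gave 0 to 1 members called, 1 to 6 higher and 1 to 3 lower at an unadjusted p under 0.05, and 0 to 201 probe sets called. The 6 higher and the 201 came without *Clock* mutant replicate 2, the 3 lower without replicate 1. The 1 higher came without WT replicate 2, and 0 probe sets were called without WT replicate 2 or WT replicate 3. The class medians ran from -0.026 to 0.046 (fibrillar), 0.084 to 0.17 (basement membrane), -0.074 to 0.070 (beaded filament), 0.059 to 0.13 (FACIT), 0.15 to 0.29 (anchoring, transmembrane and multiplexin), -0.084 to 0.084 (hydroxylases and chaperone), 0.0037 to 0.11 (propeptide processing) and -0.020 to 0.077 (all members). Differences that changed sign ran from -0.089 to 0.0023 for *Col1a1*, -0.063 to 0.039 for *Col1a2*, -0.052 to 0.025 for *Col3a1*, -0.042 to 0.11 for *Col5a1*, -0.020 to 0.12 for *Col5a2*, -0.081 to 0.30 for *Col27a1*, -0.053 to 0.33 for *Col4a3*, -0.22 to 0.14 for *Col4a6*, -0.074 to 0.065 for *Col6a1*, -0.048 to 0.070 for *Col6a2*, -0.078 to 0.12 for *Col6a3*, -0.080 to 0.077 for *Col8a1*, -0.46 to 0.38 for *Col8a2*, -0.039 to 0.19 for *Col17a1*, -0.17 to 0.32 for *Col23a1*, -0.084 to 0.038 for *P4ha1*, -0.16 to 0.15 for *Plod1*, -0.67 to 0.084 for *Plod2*, -0.033 to 0.084 for *Serpinh1* and -0.078 to 0.13 for *Pcolce*. Dim members such as *Col13a1*, *Plod2* and *Col8a2* had an SE of 0.24 or more, so that only large differences could be seen in them.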
